A study of Mus musculus with 2 samples.

Results

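The genes described here are interferon-stimulated genes, a set of 39 symbols whose transcripts are known to accumulate when a cell receives an interferon signal. They were chosen by name, and 38 of the 39 were found among the 31053 genes of the count tables (Mx2 was not found under that symbol). The question asked of them was how their unique molecular identifiers (UMIs, one per captured transcript) were spread over cell types and over cells after a neonatal stroke, and how many cells carried several members at once. The source was male C57/BL6 mice in which the middle cerebral artery was occluded (MCAO) for 60 minutes on postnatal day 10 and then reperfused for 2 weeks. Lateral striatum of the occluded hemisphere (ipsilateral) and of the opposite hemisphere (contralateral) was dissociated, and cells with the surface antigens A2B5 and/or O4, which mark oligodendrocyte lineage cells, were sorted and sequenced by 10x Genomics single-cell RNA sequencing. Each side was 1 library made from the pooled striata of 3 animals, the contralateral side is from the same operated brains, and no sham-operated group was among the samples. With 1 library per side there was no replicate spread, so no test between sides was possible. All intervals are 95% intervals that cover counting error only.

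Interferons bind receptors that activate the kinases Jak1 and Tyk2, and the kinases phosphorylate transcription factors such as Stat2. Stat2 and Irf9 are parts of a factor that binds the interferon-stimulated response element in the promoters of target genes, while a second element, the gamma-activated site, is known from the response to interferon gamma. The targets block virus entry, replication or budding, sense foreign nucleic acid, or feed back on the pathway, and in the brain microglia, endothelial cells and glia are all known to express them under inflammation.

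Barcodes with at least 500 genes and at most 15% mitochondrial UMIs were kept, which left 1913 of 2066 contralateral and 2505 of 2775 ipsilateral cells with medians of 14595 and 19851 UMIs. No barcode was shared by the libraries. Cells were clustered without the interferon genes and clusters were named from markers. They held 319 contralateral and 408 ipsilateral OPC-like cells (oligodendrocyte precursors), 128 and 256 committed-like cells (committed or newly formed oligodendrocytes) and 526 and 956 mature-like oligodendrocytes. The labels call the sorted cells oligodendrocytes, but neuroblast-like cells made up 30.3% and 21.8% of the kept cells, endothelial-like cells 9.62% and 5.11%, and astrocyte-like cells 6.12% and 4.75%. The thresholds for naming clusters were set after the data had been seen.

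Promoter sequence was compared first, because a response element near the start site is what these genes are known to share. Of the 39 symbols, 31 had an entry in the RefSeq promoter table (GRCm38.p6). The core of the response element, 2 copies of GAAA with any 2 bases between them (TTTC on the other strand), searched on both strands of the 250 bases before the start, was found in 11 of the 31 (35.5%) and in 936 of all 27025 genes with an entry (3.46%). The gamma-activated site, TTC and GAA with any 3 bases between them, which reads the same on both strands and can share bases with the first pattern, was found in 6 of the 31 (19.4%) and in 8.13% of all genes. Among members treated in later paragraphs, Irf1, Irf7, Irf9, Ifitm3, Oasl2, Xaf1 and Samd9l had an entry without a response element match. Usp18 and Rtp4 had no entry. The windows below are those of 6 of the 11 members with a response element match. Each runs 5′ to 3′ on the strand of its gene, with every base of a match to the response element core in capitals.
Bst2: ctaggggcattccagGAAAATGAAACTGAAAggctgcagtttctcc
Isg15: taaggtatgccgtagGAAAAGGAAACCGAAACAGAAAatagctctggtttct
Ifit1: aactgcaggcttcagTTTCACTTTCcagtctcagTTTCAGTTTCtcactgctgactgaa
Ifit3: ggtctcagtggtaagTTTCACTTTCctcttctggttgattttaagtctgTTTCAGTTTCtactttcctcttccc
Gbp3: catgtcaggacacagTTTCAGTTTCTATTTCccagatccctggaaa
Stat2: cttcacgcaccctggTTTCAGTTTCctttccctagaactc

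The Bst2 window lies at chr8:71537572-71537617 on the minus strand and that of Isg15 at chr4:156200860-156200911, also on the minus strand. The plus-strand windows are at chr19:34640770-34640828 for Ifit1, chr19:34583358-34583431 for Ifit3, chr3:142559984-142560029 for Gbp3 and chr10:128270261-128270300 for Stat2. Isg15 held 3 overlapping matches, the nearest of them 66 bases before the start, whereas the single match of Stat2 lay 222 bases before it. The window of Ifit3b, at chr19:34607754-34607827, had the same letters as that of Ifit3. The transcripts of these 2 neighbours are also alike: 61.8% of the 31-base words of Ifit3 occur in Ifit3b, so the split of UMIs between them is uncertain. The same holds for Oas1a, which shares 68.8% of its words with other genes, mostly Oas1g. A match describes letters in a window, and whether a factor was bound there was not measured.

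Members were higher on the ipsilateral side in OPC-like and committed-like cells, and in mature-like cells they differed less and in both directions. UMIs were summed over the cells of a class and given as counts per 1000000 UMIs of that class (CPM), and a member was counted as higher or lower when (ipsilateral CPM + 5) / (contralateral CPM + 5) passed 1.5-fold among genes with at least 20 UMIs over both libraries. In OPC-like cells 27 members were measured by that rule, 12 of them were higher and 0 lower. Of all 12206 genes measured there 1.53% were higher and 1.65% lower. In committed-like cells 15 of 26 members were higher and 0 lower, against 1.10% and 1.05% of all genes. In mature-like cells 2 of 29 were higher and 1 lower, against 0.500% and 0.164% of all genes. The median log2 ratio over the measured members was 0.47 in OPC-like, 0.60 in committed-like and 0.10 in mature-like cells, where the medians over all genes were -0.05, 0.00 and 0.00. Members with no UMI on one side do not set these medians, which were the same with those members at the bound given by 3 counts. The counts depend on the 5 CPM added: with 20 CPM in its place 2, 2 and 0 members of the 3 classes were higher. For this and each later change of setting or of cells, the share of all genes that were higher was not computed. Such counts of members therefore have no background beside them.

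**Figure D1:**
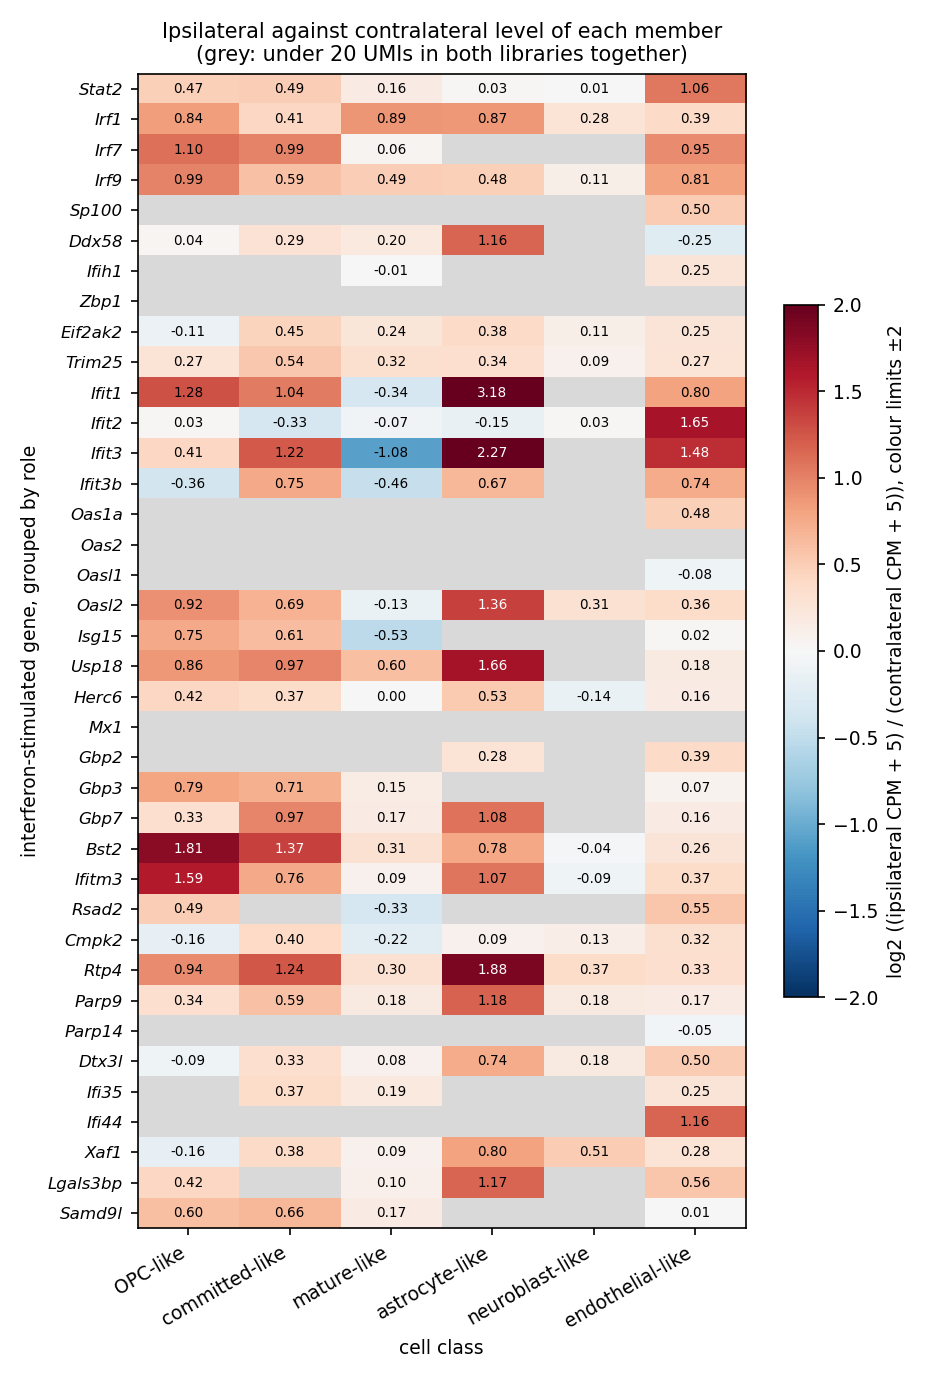
Each cell of the grid gives the log2 ratio of ipsilateral to contralateral CPM (5 CPM added to both) of 1 member (rows, grouped by role) in 1 cell class (columns), and grey marks members under 20 UMIs. OPC-like and committed-like columns are mostly above 0, with Bst2 at 1.81 and 1.37, while the mature-like column holds Ifit3 at -1.08 and Irf1 at 0.89.

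Summed over the 38 members, the level was 171 CPM contralaterally and 306 CPM ipsilaterally in OPC-like cells, a ratio of 1.78 (1.62 to 1.96). Endothelial markers there were at 55.7 and 70.9 CPM and mature oligodendrocyte markers at 486 and 644 CPM. Committed-like cells had 84.4 and 209 CPM, a ratio of 2.48 (2.20 to 2.80). The mature oligodendrocyte markers of the committed-like class were at 11978 and 8775 CPM, with 3 of 12 lower by 1.5-fold and 0 above a log2 ratio of 0. What part these marker differences have in the member ratios was not tested. Mature-like cells had 100.0 and 113 CPM, a ratio of 1.13 (1.06 to 1.20). The direction in mature-like cells turned when only cells with no UMI of a microglia marker (ratio 0.795) or of an endothelial marker (0.869) were used, and the ratio was 1.04 without a mature-like cluster of 1 contralateral and 119 ipsilateral cells led by C4b and Serpina3n. In committed-like cells with no endothelial marker UMI, 41 and 88 cells, the ratio was 1.39 and 0 members were higher. Over all kept cells the ratio was 1.02 (0.996 to 1.05), and there endothelial-like cells, a smaller share of the ipsilateral library, held 4905 of the 8720 contralateral and 4753 of the 13618 ipsilateral member UMIs.

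The transcription factors of the pathway are themselves interferon targets. Irf7, which amplifies the response, had 1 UMI in 319 contralateral and 37 UMIs in 408 ipsilateral OPC-like cells, a ratio of 21.7 with a wide interval (3.66 to 880). In committed-like cells Irf7 had 3 and 49 UMIs (ratio 8.54, 2.76 to 42.9), and in mature-like cells 27 and 58 UMIs (ratio 1.16, 0.724 to 1.91). OPC-like and committed-like cells thus had Irf7 almost wholly on the ipsilateral side, and the mature-like sums did not. However, 26 of the 27 contralateral mature-like UMIs lay in 3 cells, each with at least 8 members. Mature-like cells with fewer than 8 members had 1 Irf7 UMI in 521 contralateral cells (0.0678 CPM). Ipsilaterally such cells had 22 UMIs in 930 cells (0.829 CPM). Irf9, the DNA-binding partner of Stat2, had ratios of 2.93 (1.75 to 5.17) in OPC-like, 1.87 (1.22 to 2.95) in committed-like and 2.03 (1.47 to 2.85) in mature-like cells. Stat2 differed less, from 6.13 to 10.4 CPM in OPC-like cells, from 7.58 to 12.7 CPM in committed-like cells and from 12.0 to 14.0 CPM in mature-like cells. Irf1, a factor known for its induction by interferon gamma, was the member with the largest gain in mature-like cells, with 5 UMIs contralaterally and 135 ipsilaterally (ratio 14.6, 6.11 to 45.7). Its UMIs lay in 78 of the 956 ipsilateral cells. Sp100, a nuclear body protein, stayed under 20 UMIs in these 3 classes.

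The sensors of foreign RNA and the proteins they work with had low levels and higher sums on the ipsilateral side of committed-like and mature-like cells. The 5 sensor members summed to 40.9 and 45.0 CPM in OPC-like (ratio 1.10, 0.894 to 1.36), 20.5 and 32.5 CPM in committed-like (1.59, 1.23 to 2.07) and 5.18 and 8.66 CPM in mature-like cells (1.67, 1.29 to 2.19). Ddx58, which encodes the RNA sensor RIG-I, had log2 ratios of 0.04, 0.29 and 0.20 in OPC-like, committed-like and mature-like cells. Eif2ak2, the RNA-activated kinase that stops translation, had -0.11, 0.45 and 0.24, and Trim25, a ubiquitin ligase that activates RIG-I, 0.27, 0.54 and 0.32. With 5 CPM added none of the 3 passed 1.5-fold in these classes. Without it the ratios in mature-like cells were 1.81 (1.04 to 3.33) for Ddx58, 1.69 (1.07 to 2.73) for Eif2ak2 and 2.19 (1.33 to 3.78) for Trim25. Ifih1, another RNA sensor, passed 20 UMIs in the mature-like class alone of the 3, where its log2 ratio was -0.01, and Zbp1, a sensor of nucleic acids, had 8 UMIs over all kept cells on each side.

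Among the effectors that bind viral RNA, Ifit1 had 9 contralateral and 79 ipsilateral UMIs in OPC-like cells (ratio 5.15, 2.58 to 11.7) and 10 and 79 UMIs in committed-like cells (ratio 4.13, 2.13 to 8.95). Mature-like cells had 66 and 67 Ifit1 UMIs, and 63 of the 66 came from 1 cell. Ifit3 had 4 and 68 UMIs in committed-like cells (ratio 8.89, 3.32 to 33.6), 24 of them in 1 ipsilateral cell. The family of 4 was mixed in OPC-like cells, where 1 was higher and the median log2 ratio was 0.22. Ifit3b was there the lowest of all measured members, at -0.36. In committed-like cells 3 of the 4 were higher. Ifit2 was higher in neither class: its ratio was 1.03 (0.769 to 1.38) in OPC-like and 0.654 (0.386 to 1.12) in committed-like cells. Oasl2, an oligoadenylate synthetase-like gene, had 0 UMIs contralaterally in OPC-like and in committed-like cells and 26 and 23 ipsilaterally, at least 5.08-fold and 4.01-fold higher. Oas1a, Oas2 and Oasl1 had fewer than 20 UMIs in each of these classes.

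The ubiquitin-like protein Isg15 and its protease Usp18, which also damps the receptor, behaved differently from each other. Usp18 had 2 and 30 UMIs in OPC-like (ratio 8.80, 2.23 to 76.0), 9 and 70 in committed-like (ratio 4.07, 2.03 to 9.27) and 48 and 205 in mature-like cells (ratio 2.31, 1.68 to 3.23). It was thus higher ipsilaterally in the 3 lineage classes. Isg15 was found in few cells. In OPC-like cells it had 0 contralateral and 20 ipsilateral UMIs, at least 3.91-fold higher, with 10 of them in 1 cell. In committed-like cells it had 1 and 23 UMIs (ratio 12.0, 1.95 to 496), 19 of them in 1 cell. In mature-like cells the order was turned: 33 UMIs in 4 of 526 contralateral cells and 0 in 956 ipsilateral cells, at least 20.3-fold lower. It was not counted as lower under the rule above, since both levels are small beside the 5 CPM added (log2 ratio -0.53).

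At the membrane, Bst2, the tether that holds budding virus on the cell, had 2 and 85 UMIs in OPC-like cells (0.584 and 14.6 CPM, ratio 24.9, 6.69 to 209). It had 9 and 104 in committed-like (ratio 6.05, 3.06 to 13.6) and 83 and 222 in mature-like cells (ratio 1.45, 1.12 to 1.89). Mature-like cells with at least 8 members held 75 of the 83 and 136 of the 222. The other mature-like cells had 0.543 and 3.24 CPM of Bst2. Ifitm3, which blocks virus entry, had 14 and 131 UMIs in OPC-like cells (ratio 5.49, 3.16 to 10.3), yet the share of cells with an Ifitm3 UMI was 4.39% and 4.90%. A single ipsilateral cell held 51 of the 131. Endothelial-like cells held 1472 of the 1740 contralateral and 1406 of the 1966 ipsilateral Ifitm3 UMIs, and free RNA from such cells can give UMIs in other droplets; its part in these values was not tested. In neuroblast-like cells, a class of like depth (medians of 12073 and 12132 UMIs against 10148 and 12525 in OPC-like cells), 2.07% and 2.75% of cells had an Ifitm3 UMI. Rtp4, a chaperone of membrane receptors, was spread more widely, with a UMI in 9.09% of contralateral and 19.9% of ipsilateral OPC-like cells (ratio of CPM 2.30, 1.63 to 3.33) and in 10.2% and 25.8% of committed-like cells (3.53, 2.27 to 5.73). In neuroblast-like cells the Rtp4 shares were 0.691% and 2.94%.

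The interferon-induced GTPases Gbp3 and Gbp7 were higher in committed-like cells (log2 ratios 0.71 and 0.97), and in OPC-like cells Gbp3 was higher (0.79) and Gbp7 was 0.33. Gbp2 had 11 UMIs in OPC-like cells, all of them in 1 ipsilateral cell. Mx1, an antiviral GTPase, had 6 and 7 UMIs over all kept cells. Of the remaining members, Xaf1, which binds an inhibitor of cell death, had the most UMIs in mature-like cells, 438 and 869, in 42.8% and 43.9% of cells (ratio 1.07, 0.956 to 1.21). Samd9l, known to restrain translation, was higher in OPC-like (0.60) and committed-like cells (0.66). Parp9 and Dtx3l, whose proteins form an ADP-ribosyl transferase and ubiquitin ligase pair, overlap on opposite strands of chromosome 16. Their log2 ratios were 0.34 and -0.09 in OPC-like and 0.59 and 0.33 in committed-like cells, and how strand was used in counting is not given in the sources used here. Herc6, a ligase for ISG15, had log2 ratios of 0.42, 0.37 and 0.00 in the 3 classes, and Cmpk2, a mitochondrial nucleotide kinase, -0.16, 0.40 and -0.22. Rsad2, the antiviral enzyme viperin, had 0.49 in OPC-like and -0.33 in mature-like cells. Lgals3bp was at 0.42 and 0.10 in the same classes and Ifi35 at 0.37 and 0.19 in committed-like and mature-like cells. Parp14 and Ifi44 stayed under 20 UMIs in the 3 classes.

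Members with the response element match were not a separate group in OPC-like cells, where 4 of the 9 measured with a match and 6 of the 15 without were higher. In committed-like cells 7 of 8 with a match and 5 of 15 without were higher, with medians of 0.86 and 0.41. In mature-like cells the counts were 0 of 9 and 1 of 17. These are descriptions of few genes and carry no test.

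The second question was how many cells carried the members. To remove differences in depth, each cell was thinned at random to 5000 UMIs, and shallower cells were left out (16 contralateral and 21 ipsilateral in the OPC-like class). In OPC-like cells 15 of 303 contralateral and 44 of 387 ipsilateral cells then held UMIs of at least 3 members, 4.95% and 11.4%, a difference of 6.42 points (2.13 to 10.6). Committed-like cells had 0.794% and 7.23% (6.44 points, 1.86 to 10.5). Mature-like cells had 0.766% and 2.92% (2.15 points, 0.609 to 3.56). At full depth the shares were 20.7% and 39.5%, 28.1% and 45.3%, and 10.6% and 25.6%. The share with at least 1 member after thinning differed by 5.78 points in OPC-like cells (-1.88 to 13.4), by 20.8 points in committed-like (9.99 to 30.9) and by 9.49 points in mature-like cells (4.61 to 14.2). Most cells of each lineage class on both sides thus had fewer than 3 members at this depth.

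**Figure D2:**
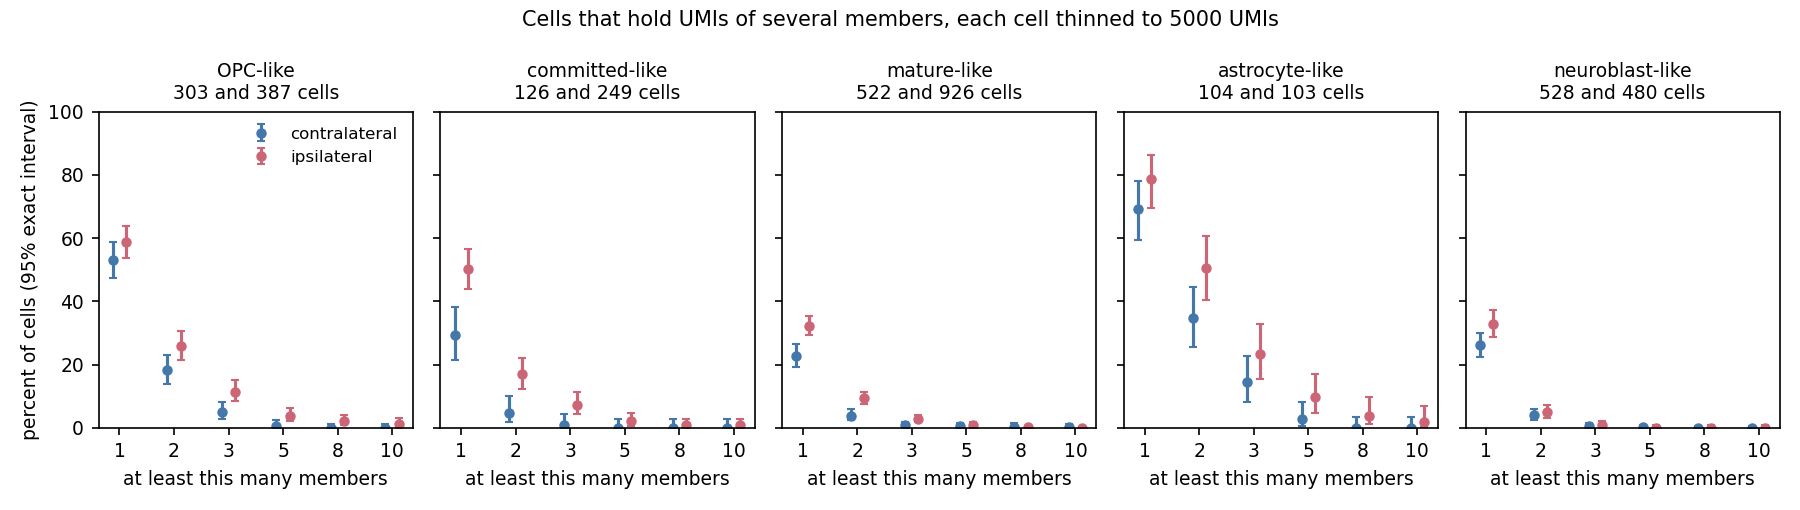
The y axis gives the percent of cells, thinned to 5000 UMIs, that held UMIs of at least the number of members on the x axis, with exact 95% intervals, for contralateral (blue) and ipsilateral (red) cells of 5 classes. At 3 members the OPC-like shares are 4.95% and 11.4% and the committed-like shares 0.794% and 7.23%, and the neuroblast-like shares stay under 1%.

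A small set of cells carried many members at once and held much of the signal. Without thinning, 1 of 319 contralateral and 23 of 408 ipsilateral OPC-like cells held at least 8 members, a limit set after the data had been seen. Those 23 cells had a median of 10 members, the highest 24, and held 758 of the 1785 ipsilateral member UMIs (42.5%). Committed-like cells numbered 4 and 26 by this limit, and the 26 held 52.1% of the ipsilateral member UMIs. Mature-like cells numbered 5 and 26, which held 40.3% of the contralateral and 27.9% of the ipsilateral member UMIs. The limit cuts a graded scale: ipsilaterally 4, 5 and 5 cells of the 3 classes had exactly 8 members, and 9, 6 and 9 had exactly 7. It also favours deep cells, as the ipsilateral carriers had medians of 19077, 46936 and 30951 UMIs where their classes had 12525, 23534 and 28380. After thinning, at least 8 members were found in 0 of 303 and 8 of 387 OPC-like cells, which by 3 counts of the total allows a contralateral share of up to 0.99% (the exact interval ends at 1.21%). Neuroblast-like cells, taken as the class with the lowest member level, had shares of 0.568% and 0.833% with at least 3 members after thinning.

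**Figure D3:**
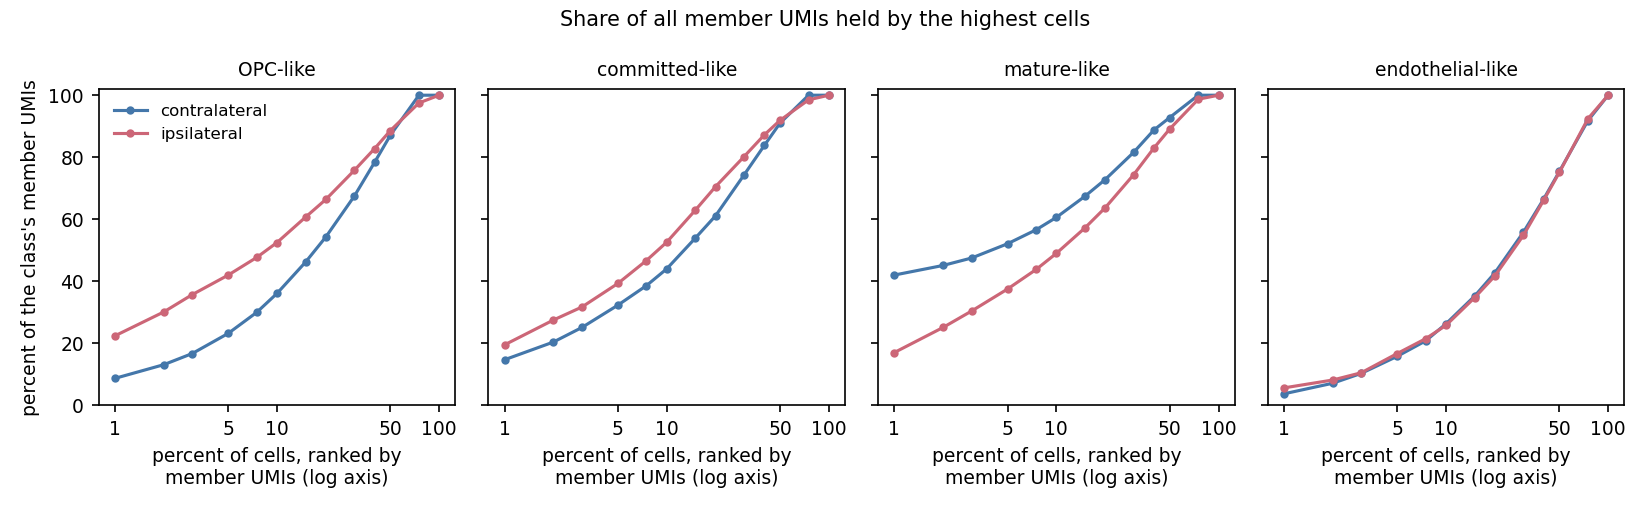
Cells of each class were ranked by member UMIs, and the curve gives the percent of the class's member UMIs (y axis) held by the top percent of cells (x axis, log scale) in each library. The top 1% held 8.69% of contralateral and 22.4% of ipsilateral member UMIs in OPC-like cells, 42.0% and 17.0% in mature-like cells, and 3.71% and 5.62% in endothelial-like cells.

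Without the cells of 8 or more members, OPC-like cells had 167 and 194 CPM, a ratio of 1.16, and 2 members were higher in place of 12. Committed-like cells then had 67.5 and 124 CPM (ratio 1.83) with 3 members higher in place of 15, and mature-like cells 60.2 and 84.2 CPM (ratio 1.40). An ipsilateral excess thus remained in the other cells of each class. It was smaller than before in OPC-like and committed-like cells and larger in mature-like cells. The cells left out were chosen by the members themselves, so these moves are no separate evidence. They had held 2.90% of contralateral and 42.5% of ipsilateral member UMIs in OPC-like cells. In committed-like cells the shares were 25.1% and 52.1%, and in mature-like cells 40.3% and 27.9%. The share of all genes that were higher without the carriers was not computed. In the remaining OPC-like cells Bst2 went from 0.586 to 3.02 CPM and Irf7 from 0.293 to 1.51 CPM, while Rtp4 went from 10.5 to 17.7 CPM and Irf9 from 5.27 to 11.1 CPM. Ifitm3 did not remain higher: 116 of its 131 ipsilateral UMIs were in the carriers, and the other cells had 4.10 and 2.83 CPM.

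**Figure D4:**
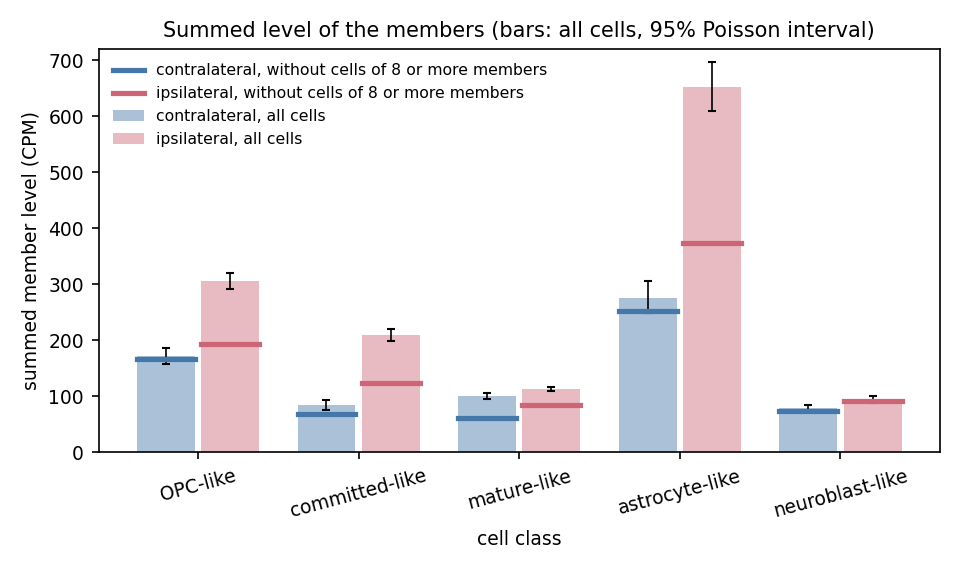
Bars give the summed level of the members (CPM, y axis from 0, with 95% Poisson intervals) over all cells of a class in each library, and the horizontal lines give the same level without the cells that held 8 or more members. The ipsilateral OPC-like level is 306 CPM with and 194 CPM without them, the astrocyte-like level 653 and 373 CPM, and the neuroblast-like lines lie near their bars.

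In mature-like cells 1 contralateral cell held 23.9% of the member UMIs of its class and library. It had 356 member UMIs from 29 members out of 12051 UMIs, among them 92 of Ifit3, 63 of Ifit1, 30 of Oasl2 and 28 of Ifit3b. The cell had 436 UMIs of mature oligodendrocyte markers and 0 of OPC, endothelial and microglia markers. The next contralateral cell had 129 member UMIs and the highest ipsilateral cell 87. Ifit3 was the one member lower ipsilaterally in this class (107 and 21 UMIs), and 92 of the 107 came from that cell. Without the cell with the most member UMIs on each side, the Ifit3 log2 ratio was -0.07 instead of -1.08 and the summed ratio was 1.44 instead of 1.13. The 26 ipsilateral carriers were drawn from 6 clusters and most of them shared a few members: Xaf1 was found in 26, Irf9 and Usp18 in 23 each, Ifit1 and Rtp4 in 18 each and Bst2 in 15. Xaf1, Irf9, Usp18 and Bst2 were also in 5 of the 5 contralateral carriers, and Ifit1 was in 2. Isg15 was in 0 of the 26 ipsilateral carriers, and in 0 of the 956 ipsilateral mature-like cells, which allows a share of up to 0.314% of cells with a UMI. In 2 of the 5 contralateral carriers lay 31 of the 33 Isg15 UMIs.

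OPC-like and mature-like carriers had the markers of their own class at the level of the other cells, committed-like carriers had less of theirs, and all had few markers of immune cells. Ipsilateral OPC-like carriers had a median of 182 UMIs of the 10 OPC markers, and their sum was 8976 CPM where other OPC-like cells had 9272. Committed markers were higher in these OPC-like carriers, at 3699 CPM against 2163 CPM in the other cells, and 412 of the 1981 UMIs lay in 1 cell. Mature-like carriers had 42786 CPM of the mature oligodendrocyte markers, other cells 40736. Of the 12 microglia markers, 2 had any UMI in the ipsilateral carriers of each class, and C1qa, C1qb, C1qc, Cx3cr1, Csf1r, Tmem119, Trem2, Tyrobp and Aif1 were at 0. The microglia sum was 24.3, 20.2 and 30.3 CPM in OPC-like, committed-like and mature-like carriers and 30.3, 14.5 and 22.3 CPM in the other cells. All 6 macrophage markers were at 0. Endothelial markers were at 265 CPM in OPC-like carriers and 51.3 CPM in the others, and 119 of the 142 UMIs came from 1 cell that Scrublet, a caller of doublets, marked. Scrublet marked 2 of the 23 OPC-like, 11 of the 26 committed-like and 0 of the 26 mature-like ipsilateral carriers, against 36 of all 256 ipsilateral committed-like cells. Committed-like carriers had 8126 CPM of the committed markers against 11331 in other cells, and 16133 CPM of mature oligodendrocyte markers against 7054. With all marked cells left out before clustering, the committed-like ratio was 2.55 and 15 members were higher, where it was 2.48 with 15 higher before. The score thresholds of Scrublet were unlike, 0.274 contralaterally and 0.154 ipsilaterally, and 0 of the 128 contralateral committed-like cells were marked. What part mixed droplets have in the ratio was not tested.

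Other classes in the sort were compared on the same scale. In astrocyte-like cells (117 and 119 cells) 15 of 23 measured members were higher and 0 lower, against 4.61% and 4.11% of all genes there. The summed level was 276 and 653 CPM, a ratio of 2.36 (2.09 to 2.68). Markers of other classes were also higher there by 1.5-fold, 6 of 10 for OPC (median log2 ratio 0.89), 4 of the 8 measured for committed (0.51) and 5 of 12 for mature oligodendrocytes (0.46), while 0 of the 10 astrocyte markers were. Their part in the member values was not tested. Ifit1 had 0 contralateral and 52 ipsilateral UMIs, at least 17.8-fold higher, of which 29 were in 1 cell that Scrublet marked, and the same cell held 50 of the 76 ipsilateral Ifit3 UMIs. Without the marked cells the summed ratio was 1.89 and 10 members were higher. Ifitm3 in this class was spread over cells, with 83 and 176 UMIs in 33.3% and 42.9% of them (ratio 2.18, 1.67 to 2.87). Neuroblast-like cells (579 and 545) had 0 of 15 members higher and 0 lower, against 0.634% and 0.463% of all genes, and a summed level of 78.7 and 93.6 CPM (ratio 1.19, 1.07 to 1.32).

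Endothelial-like cells (184 and 128) carried the members as a class and on both sides. Their summed level was 2959 and 3886 CPM, a ratio of 1.31 (1.26 to 1.37), and after thinning 95.2% and 99.2% of the cells held at least 3 members. Other markers differed between the sides of this class: erythroid markers summed to 8432 and 0.818 CPM, mural markers to 63.4 and 134 CPM, committed markers to 314 and 573 CPM and mature oligodendrocyte markers to 1425 and 2566 CPM. Endothelial markers were at 20033 and 18814 CPM, and the part of the other markers in the member values was not tested. Of 35 measured members 8 were higher and 0 lower, against 5.36% and 2.98% of all genes. The 8 included Ifit2 (3 and 20 UMIs, ratio 9.03, 2.68 to 47.5), Ifit3 (ratio 3.15, 2.15 to 4.69), Ifi44, an interferon-induced cytoplasmic protein (2.45, 1.70 to 3.58), Stat2 (2.33, 1.52 to 3.62) and Irf7 (2.00, 1.55 to 2.59). Isg15 was alike on the 2 sides at 322 and 241 UMIs (ratio 1.01, 0.855 to 1.20). Ifit2 thus had its largest log2 ratio, 1.65, in endothelial-like cells and -0.33 in committed-like cells.

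The rest of the pathway was followed from ligand to target with lists of non-member genes. Of 21 interferon ligand genes found in the files, 2 had any UMI: Ifnk with 2 contralateral UMIs and Ifnz with 1 ipsilateral UMI over all kept cells. The receptor chain Ifnar1 was at 39.4 CPM on both sides in OPC-like cells and had ratios of 0.977 (0.767 to 1.25) in committed-like and 0.982 (0.838 to 1.15) in mature-like cells. The kinase Jak1 had ratios of 1.07 (0.904 to 1.28), 1.05 (0.869 to 1.28) and 1.01 (0.913 to 1.12) in the 3 classes. Of 14 genes of nucleic acid sensing, 5, 5 and 8 were measured in the 3 classes and 0 were higher or lower. Among 6 feedback genes, 1 was higher in each class: Socs3, an inhibitor of Jak kinases that many cytokines induce, with log2 ratios of 0.71, 1.58 and 2.25. Of 10 class I antigen presentation genes, 1, 3 and 3 were higher in OPC-like, committed-like and mature-like cells, and in mature-like cells these were H2-D1 (2.22), B2m (1.65) and H2-K1 (1.41). The interferon-induced gene Ifi27l2a, which is no member, had log2 ratios of 1.29, 0.97 and 2.88. Of the other class I genes measured in mature-like cells, Tapbp was at 0.49, Psmb10 at -0.41 and Psmb8 at -0.47.

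Some non-member interferon targets were also higher inside the carriers, which had been chosen by the members alone. Of 12 class I and Ifi27 genes, the ratio of carriers to other ipsilateral cells had an interval above 1 for 9 in OPC-like, 6 in committed-like and 9 in mature-like cells, and below 1 for 0. The share of all genes with such intervals was not computed, here or for the contralateral carriers below. These counts of genes therefore have no background beside them. Psmb10, a proteasome subunit, had intervals that include 1 in each class, with ratios of 1.29, 1.17 and 1.56. B2m, the light chain of class I molecules, had ratios of carriers to other ipsilateral cells of 2.76 (2.30 to 3.29) in OPC-like, 1.77 (1.45 to 2.15) in committed-like and 8.70 (7.95 to 9.51) in mature-like cells. H2-K1 had 4.34 (3.43 to 5.47), 2.23 (1.65 to 2.99) and 13.9 (12.1 to 16.0). Ifi27l2a had 59.4 (29.1 to 137) in OPC-like, 5.12 (3.59 to 7.31) in committed-like and 35.3 (32.3 to 38.6) in mature-like cells. These Ifi27l2a ratios rest on few cells in the first 2 classes. Its 54 UMIs in OPC-like carriers lay in 6 of the 23 cells, 20 of them in 1 cell. In committed-like carriers it was found in 8 of the 26. The receptor chain Ifnar1 did not share this pattern, with ratios of 0.741 (0.416 to 1.23), 0.865 (0.576 to 1.26) and 1.24 (0.740 to 1.96), nor did Jak1, with 1.13 (0.787 to 1.57), 1.30 (0.992 to 1.69) and 0.688 (0.447 to 1.01). Another receptor chain, Ifnar2, was lower in committed-like carriers at 0.629 (0.517 to 0.761). In OPC-like carriers Ifnar2 was at 0.702 (0.465 to 1.02). Socs3 was alike in OPC-like carriers and other cells (1.07, 0.952 to 1.19) and in mature-like ones (0.978, 0.804 to 1.18), and higher in committed-like carriers (1.88, 1.57 to 2.23). Socs1, another feedback gene, was higher in OPC-like carriers (2.09, 1.14 to 3.61) and lower in committed-like ones (0.421, 0.164 to 0.914). The 5 contralateral mature-like carriers had B2m at 17.8 times (13.1 to 23.7) the level of the other contralateral cells, and 12 of the 12 genes had intervals above 1. Several of the 12 rest on few cells. Psmb9 had 3 UMIs in 1 of these carriers, and Nlrc5 had 2 UMIs in 2 of them. A single cell held 71.4% of the Tap1, 69.7% of the Psmb8 and 56.5% of the Ifi27l2a UMIs of contralateral mature-like cells. The contralateral carriers of the other classes had fewer genes with intervals above 1. In the 4 committed-like cells 3 genes were above 1 and 1 was below, H2-K1 at 0.165 (0.00412 to 0.941). In the 1 OPC-like cell 0 were above 1.

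**Figure D5:**
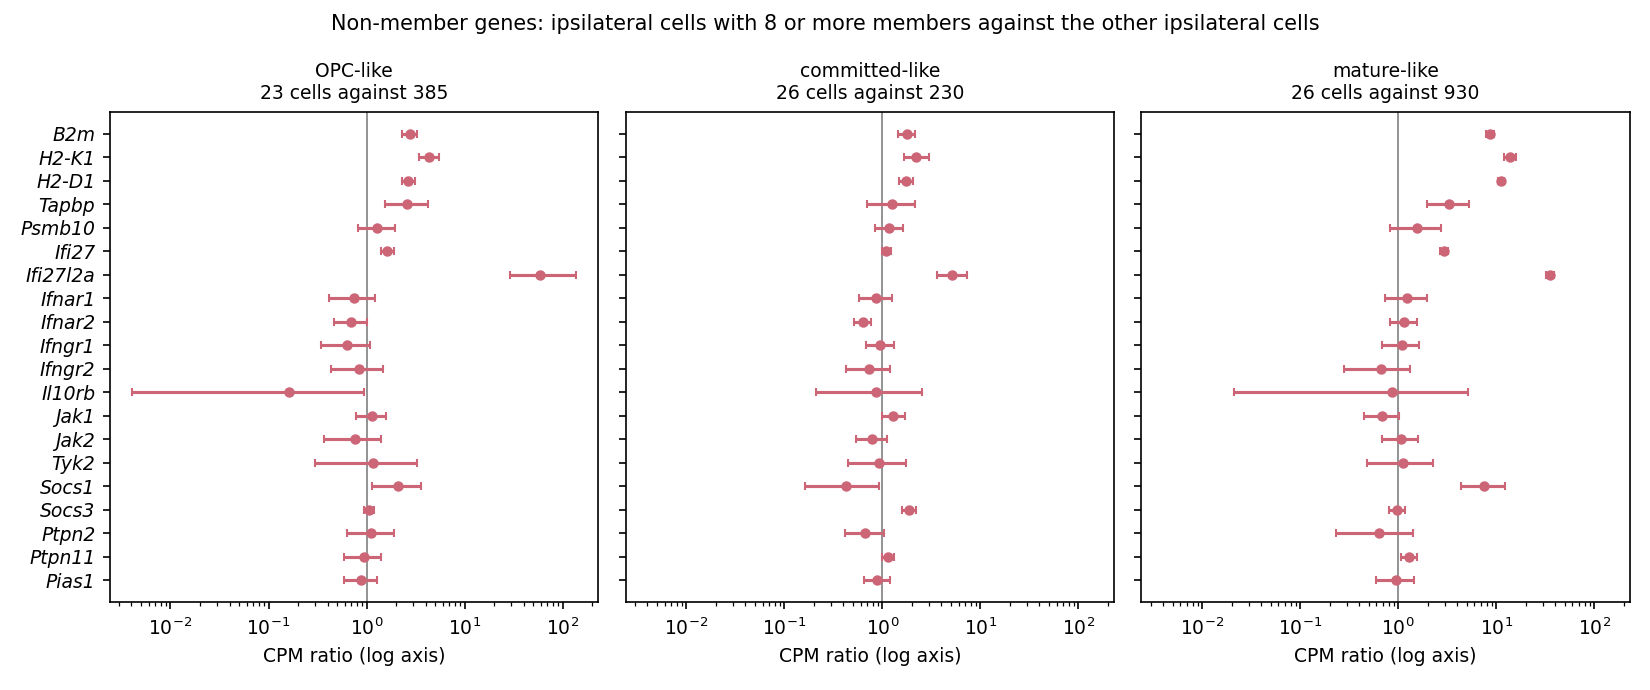
Points give the ratio of CPM (x axis, log scale, 95% exact interval) of 20 non-member genes of the pathway between ipsilateral cells with 8 or more members and the other ipsilateral cells of 3 classes. B2m, H2-K1, H2-D1 and Ifi27l2a lie right of 1 in each class, and Ifnar1, Tyk2 and Jak1 have intervals that include 1. Ifnar2 lies left of 1 in committed-like cells, at 0.629 (0.517 to 0.761).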

How the data were processed

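The deposited files hold UMI counts per gene and barcode, which the authors made with Cell Ranger 3.1.0, mm10, per the submitters' processing notes; no further normalisation is recorded there. Barcodes were filtered on genes and mitochondrial share, and scaled to 10000 counts per cell for clustering in scanpy 1.11.5 (Python 3.11.15, numpy 2.4.6, scipy 1.17.1): 2000 variable genes without the interferon genes, 30 principal components, 15 neighbours, Leiden resolution 1. A cluster was named for the class with the highest marker score, the mean log2 ratio of marker CPM to the median over clusters (20 CPM added). The score had to be at least 1, with at least 3 markers at a log2 ratio of at least 1. Clusters with a close second class were left unnamed, 46 contralateral and 78 ipsilateral cells. One of them, with 46 cells marked by Scrublet, held 1 contralateral and 8 ipsilateral cells with at least 8 members, and the other 0 and 3. Scrublet marked 14 (0.732%) contralateral and 101 (4.03%) ipsilateral kept cells, and none was removed. Raw UMIs were summed per class and library, with exact Poisson intervals for levels, exact conditional binomial intervals for ratios and Newcombe intervals for differences of shares. PCR duplicates are collapsed by UMI. Scripts were tested on simulated data. Columns of samples not used numbered 0. Members and gene lists were chosen with earlier results of these data known. Named with values were the 8 members with the largest absolute log2 ratio in each class and the 10 with the most UMIs. Members with over 25% of their UMIs in 1 cell and 9 members listed by name were also named. The other members and the non-members Ifnar1, Ifnar2, Jak1, Tyk2 and Socs1 were added after their values were seen. Promoter sequence came from RefSeq, GRCm38.p6, and transcript sequence and gene positions came from the GENCODE mouse annotation. Alternatives tried were other pseudocounts, filters, resolutions, thinned depths and cell exclusions. One non-member gene of the pathway is not reported here.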

Additional observations from a re-analysis of the deposited data

Results flagged for a closer look

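Ifit3 differed in direction between classes under the same contrast. Its log2 ratio of ipsilateral to contralateral CPM was -1.08 in mature-like cells, 1.22 in committed-like cells, 2.27 in astrocyte-like cells and 1.48 in endothelial-like cells. With 1 library per side the difference between classes was not tested. In mature-like cells 92 of the 107 contralateral Ifit3 UMIs lay in 1 cell, and without the cell with the most member UMIs on each side the log2 ratio was -0.07. In astrocyte-like cells 50 of the 76 ipsilateral UMIs lay in 1 cell marked as a doublet.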

How the results depend on the processing

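No paired analysis was possible because each side is 1 library. Of 207 recomputed values of the 18 main results, 142 were counted as unchanged, 63 as moved and 2 as reversed. Of 705 other values, 593 were counted as unchanged, 110 as moved and 2 as reversed. Unchanged did not always mean a move smaller than the error. The astrocyte-like Ifit1 log2 ratio, 3.18, was counted as unchanged in 11 of 11 alternatives, which ran from 1.60 to 5.37. Alternatives that drop cells with 8 or more members, cells with endothelial marker UMIs or the C4b-led cluster were chosen after seeing the data; the cause of each move was not tested. With 1 CPM added, the median log2 ratios of OPC-like, committed-like and mature-like cells were 0.93, 1.24 and 0.25, with 23 committed-like and 7 mature-like members higher; with 20 CPM the first 2 medians were 0.21 and 0.24, with 2, 2 and 0 higher. Requiring 100 UMIs gave 4 and 3 members higher in OPC-like and committed-like cells and a mature-like median of 0.27. Without cells of 8 or more members the OPC-like values were 0.07, 2 higher and a ratio of 1.16, with Ifitm3 at -0.22; committed-like cells had 3 higher and 1.83, mature-like 1.40. The same mix of clusters gave an OPC-like ratio of 1.97 and 1 mature-like member higher. Interferon genes kept in clustering gave a committed-like ratio of 2.11. Cells with no microglia marker UMI gave an OPC-like ratio of 1.61, a committed-like median of 0.83, and in mature-like cells a median of -0.06, 1 higher and a ratio of 0.795 (329 and 536 cells). Cells with no endothelial marker UMI gave committed-like 0.25, 0 higher and 1.39, and a mature-like ratio of 0.869 (240 and 491 cells); with at most 2 such UMIs the committed-like ratio was 3.00. Without the cell with the most member UMIs per library, mature-like cells had 0.20 and 1.44, and without the C4b-led cluster 1 higher and 1.04. The share held by the top 1% of ipsilateral OPC-like cells was 20.3% with a stricter barcode filter, 19.0% with no microglia and 29.1% with no endothelial marker UMI, and contralaterally 5.21% with interferon genes kept; the top 5% held 23.2% and 42.0%. In ipsilateral committed-like cells it was 25.4% (stricter filter), 27.1% (Scrublet calls removed), 28.0% (Leiden resolution 2), 24.8% (interferon genes kept), 26.7% (no microglia), 6.49% (no endothelial; contralaterally 32.9%) and 22.7% (at most 2 endothelial); the top 5% held 32.3% and 39.3%. In contralateral mature-like cells it was 50.7%, 53.1% and 38.7% under the last 3 marker filters, ipsilaterally 18.9% without the C4b-led cluster; the top 5% held 52.1% and 37.5%. The difference in cells with several members was 18.8, 17.2 and 15.0 points unthinned; for at least 2 members 12.1 (committed-like) and 5.46 (mature-like), for at least 5 members 0.397 and at 10000 UMIs 4.42 (mature-like). Astrocyte-like Ifit3b was at -0.08 with the stricter filter. Small counts limit most single members, and the counts of members higher under an alternative have no share of all genes beside them.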
